A study of Mus musculus with 18 samples.

Results

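Signals of 7 mouse genes of ribosome production and polyamine synthesis were followed in 3T3-F442A adipocytes given growth hormone (GH), and were set against the signal of Myc, the gene of a transcription factor of cell growth. The genes were Noc4l, Bop1, Fbl, Ncl and Npm1 for ribosome production, and Odc1 and Srm for polyamines. All probe sets that the platform table assigns to these symbols alone were taken, which gave 8 probe sets of 12422 measured and 7 genes of 8251 named. Bop1 has 2 of the probe sets and each other gene has 1. Myc has 1 probe set. The 3T3-F442A line consists of mouse preadipocytes, which form fat-storing cells in culture. RNA was hybridised to Affymetrix MG_U74Av2 arrays in 6 groups of 3 arrays each: GH and control at 30 min, GH and control at 4 h, and GH and control at 48 h. Every group has 1 array from each of 3 numbered experiments, and all groups share the same cell line with no genetic change named. The labels give neither the dose of GH nor what the control cells received. Beyond the word experiment they do not say that cultures were separate, so a p-value here reflects only how far these samples spread.

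Ribosomes are built in the nucleolus, where RNA polymerase I copies the ribosomal RNA genes and a large set of assembly factors cuts, modifies and folds the transcript. Polyamines are small charged molecules that bind RNA and are needed for growth. In many cell types the MYC protein binds E-boxes, whose preferred letters are CACGTG, near genes of both processes, and these genes are widely used as readouts of MYC activity. GH acts on adipocytes through its receptor and STAT factors, which bind letters of the form TTCNNNGAA.

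Promoter sequences are shown because the genes were set against Myc, and E-boxes are the letters its protein is known to bind. The RefSeq promoter table of build GRCm38.p6 runs from 250 bases before to 50 bases after each start and held 3 of the 7 genes. The sequences below are written along the gene, with capitals for GGGCGG, the letters of a GC box, and for TTCNNNGAA, both on either strand. Noc4l is at chr5:110653333-110653632 on the minus strand, Ncl at chr1:86359406-86359705 on the minus strand, and Odc1 at chr12:17544623-17544922 on the plus strand.
Noc4l: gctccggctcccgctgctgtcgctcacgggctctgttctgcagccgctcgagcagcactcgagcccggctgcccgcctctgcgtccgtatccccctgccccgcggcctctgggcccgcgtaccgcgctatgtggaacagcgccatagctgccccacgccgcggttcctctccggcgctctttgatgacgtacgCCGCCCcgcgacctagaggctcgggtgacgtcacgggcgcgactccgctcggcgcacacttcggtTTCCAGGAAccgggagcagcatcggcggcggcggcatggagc
Ncl: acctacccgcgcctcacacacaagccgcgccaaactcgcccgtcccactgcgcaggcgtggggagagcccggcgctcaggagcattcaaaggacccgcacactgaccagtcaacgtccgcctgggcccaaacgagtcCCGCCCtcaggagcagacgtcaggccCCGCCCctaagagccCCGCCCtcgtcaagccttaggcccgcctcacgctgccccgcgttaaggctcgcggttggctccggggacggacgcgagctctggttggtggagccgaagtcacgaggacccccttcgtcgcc
Odc1: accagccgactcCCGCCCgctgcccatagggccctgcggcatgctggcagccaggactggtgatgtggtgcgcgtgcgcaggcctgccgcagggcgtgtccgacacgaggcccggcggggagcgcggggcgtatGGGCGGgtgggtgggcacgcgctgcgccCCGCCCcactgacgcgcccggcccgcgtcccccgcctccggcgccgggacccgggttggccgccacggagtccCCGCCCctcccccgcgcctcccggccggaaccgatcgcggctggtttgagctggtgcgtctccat

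The letters CACGTG were in 0 of these 3 windows, against 7.15% of the 32851 promoters in the table. The wider form CANNTG, which takes in every CACGTG, was also in 0 of 3, against 72.3% of all promoters. GGGCGG was in all 3, with 1 match in Noc4l, 3 in Ncl and 4 in Odc1, against 35.7% of promoters with at least 1 match. TTCNNNGAA had 1 match, in Noc4l, beginning 9 bases after the start, against 8.3% of all promoters. TATAAA had a match in 0 of the 3 and in 13.6% of all. The 3 windows held 71.7% G and C in Noc4l, 69.3% in Ncl and 78.0% in Odc1, and the median of the table was 52.7%. All motifs were searched on both strands, and a match is a run of letters, not a measured binding site. Bases outside these windows were not searched, so 0 of 3 does not show that the genes lack an E-box.

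Values are signal intensities per probe set on a linear scale, and differences are GH minus control of log2(signal + 25). They are read within a probe set only, since probe sets differ in brightness for reasons of their design. Group names come from the sample titles. The descriptions of 3 samples name another group: GH at 30 min in experiment 1 is described as GH at 48 h, GH at 4 h in experiment 3 as GH at 30 min, and the control at 48 h in experiment 3 as the control at 4 h. Differences of the 7 genes and of Myc, and list medians, at 4 h are therefore also given without these 3 arrays. Of 14 adipocyte markers measured, 14 had a mean above 105.6, the highest signal of the yeast and Bacillus control probe sets, and 12 of 13 preadipocyte or fibroblast markers did so too. Of 4 macrophage markers, Cd68 and Csf1r lay above that limit and Ptprc and Adgre1 below it. Of 3 muscle markers, Ckm and Actc1 lay above it, and 0 of 3 endothelial markers did. The ratio of 3-prime to 5-prime signal ran between 0.724 and 0.931 for Gapdh and between 1.22 and 2.04 for Actb over the 18 arrays.

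With GH at 4 h, 6 of the 7 genes had their highest group mean of the whole study, and Npm1 had its lowest. None of the 8 probe sets passed limma's test of GH against control at any of the 3 times, when the test called 0.0403% of all 12422 probe sets at 30 min, 0.121% at 4 h and 0.338% at 48 h. At 4 h the differences were largest for Noc4l and Bop1, the genes whose GH arrays all lay above the control arrays, as they did for 6.26% of all probe sets. At 30 min and 48 h the GH and control arrays overlapped for each of the 8 probe sets.

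Noc4l, whose yeast counterpart is needed for assembly of the small ribosomal subunit, had signals of 892.2, 1010.1 and 667.2 with GH at 4 h in experiments 1, 2 and 3, against 458.8, 508.3 and 513.6 in controls. Every GH array was above every control array, and experiment 3 had the smallest gap. The group means were 856 ± 174 with GH and 494 ± 30.2 in controls (SD, n = 3 each). The log2 difference was 0.75 ± 0.18 (SE, limma adjusted p = 0.236), a 1.68-fold difference on that scale. At 30 min Noc4l read 457.3, 456.6 and 470.4 with GH and 439.6, 450.6 and 538.5 in controls, a difference of -0.04. At 48 h it read 576.6, 503.8 and 676.3 with GH and 489.5, 509.5 and 374.9 in controls, a difference of 0.34 (limma adjusted p = 0.816). The GH array of experiment 3 was the highest and the control array of experiment 3 the lowest of these 6, and that control is one of the 3 arrays whose description disagrees with its title.

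Bop1 encodes a scaffold protein of the complex that processes RNA of the large ribosomal subunit. Its brighter probe set read 811.4, 906.0 and 538.9 with GH at 4 h, against 520.5, 439.9 and 500.2 in controls. The lowest GH array, that of experiment 3, lay just above the highest control array. The log2 difference was 0.57 ± 0.17 (SE, n = 3 each, limma adjusted p = 0.366). At the other times its groups overlapped, with GH arrays between 479.0 and 502.1 at 30 min, against 474.8 to 512.1 in controls, and between 449.2 and 505.0 at 48 h, against 460.2 to 570.6 in controls. The dimmer Bop1 probe set went the other way at 4 h, with 58.2, 49.7 and 81.8 with GH and 186.4, 94.0 and 45.4 in controls, a difference of -0.47 ± 0.42 (limma adjusted p = 0.941). It lay below the background limit on 14 of 18 arrays, so it says little about the transcript.

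Fbl encodes fibrillarin, the methyltransferase that modifies ribosomal RNA with guide RNAs. It read 2148.8, 1796.3 and 1601.5 with GH at 4 h, against 1598.2, 1189.4 and 1622.7 in controls. The groups overlapped, and in experiment 3 the GH and control arrays were nearly equal. The log2 difference was 0.33 ± 0.18 (SE, limma adjusted p = 0.807). At 30 min the difference was -0.12 and at 48 h it was -0.09, with overlapping arrays at both times.

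Ncl, for nucleolin, and Npm1, for nucleophosmin, encode abundant nucleolar proteins that act as chaperones of RNA and histones. Ncl read 4649.6, 4660.3 and 3826.5 with GH at 4 h and 4446.2, 3693.6 and 3960.2 in controls. Its difference was 0.12, with a 95% interval of -0.26 to 0.49. Npm1 read 6189.4, 5205.1 and 6255.9 with GH at 4 h and 6935.6, 5846.6 and 6665.9 in controls. It was the 1 gene of the 7 lower with GH at 4 h, by a difference of -0.14 with an interval of -0.49 to 0.21, and each experiment had that sign. Npm1 also varied least over the study, its highest array being 1.39 times its lowest, against 2.69 times for Noc4l.

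Odc1 encodes ornithine decarboxylase, which makes putrescine in the rate-limiting step of polyamine synthesis. Its signals with GH at 4 h were 494.4, 478.5 and 363.4, against 277.5, 271.6 and 379.1 in controls. The GH arrays of experiments 1 and 2 were the highest of the study for this gene, while in experiment 3 GH was slightly below control. The log2 difference was 0.50 ± 0.21 (SE, limma adjusted p = 0.643). Odc1 read 282.0, 246.9 and 394.5 with GH at 48 h and 306.5, 261.1 and 368.6 in controls. At that time the arrays of experiment 3 were the highest in both groups.

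Srm encodes spermidine synthase, which turns putrescine into spermidine. It is known here from an _f_at probe set, a type that can read related transcripts. Its signals with GH at 4 h were 1301.6, 1127.4 and 948.9, against 703.0, 747.8 and 1024.3 in controls. Experiments 1 and 2 had GH far above control and experiment 3 had GH below it, so the groups overlapped. The log2 difference was 0.44 ± 0.18 (SE, limma adjusted p = 0.643), and it was -0.08 at 30 min and 0.16 at 48 h.

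**Figure D1:**
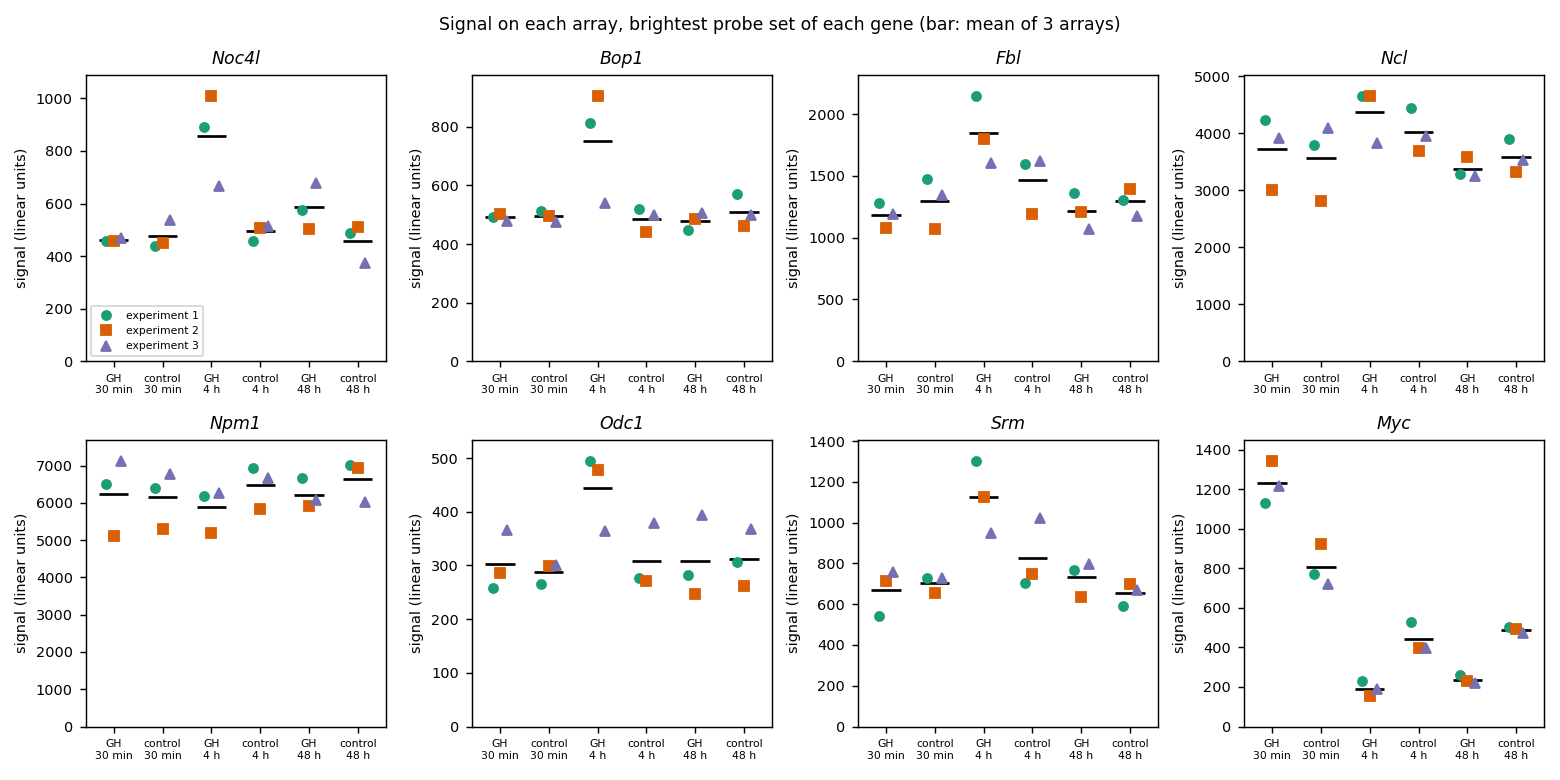
Signal on a linear scale (vertical axis) of the 7 genes and Myc in each group (horizontal axis), with 1 point for each array, shaped and coloured by experiment, and a bar for the mean of 3 arrays. With GH at 4 h, Noc4l and Bop1 stand above all controls of that time, and the triangles of experiment 3 lie below the points of the other experiments for Noc4l, Bop1, Fbl, Ncl, Odc1 and Srm.

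Beside the count of 0 called by limma, an unadjusted p below 0.05 was reached by 0 of 8 at 30 min, 4 of 8 at 4 h (Noc4l, the brighter Bop1 probe set, Odc1 and Srm) and 0 of 8 at 48 h, and by 2.45%, 6.86% and 6.5% of all 12422 probe sets at these times. The median difference of the 7 genes at 4 h was 0.44, against 0.01 over all genes, and 6 of 7 were higher with GH, against 51.0% of all genes. The medians at 30 min and 48 h were -0.01 and -0.08. With the experiment as a replicate block, which calls 0.0805% of all probe sets at 30 min, 0.362% at 4 h and 1.27% at 48 h, the count of the 8 stayed at 0, and the adjusted p at 4 h was 0.101 for Noc4l and 0.180 for Bop1.

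Experiment 3 stood apart from the other experiments at 4 h. The median difference of the 7 genes was 0.62 in experiment 1, 0.58 in experiment 2 and -0.05 in experiment 3, and 6, 6 and 2 of the 7 genes were higher with GH. The GH array at 4 h of experiment 3 is one of the 3 with conflicting labels. Leaving those 3 out therefore leaves GH at 4 h with experiments 1 and 2 alone, as leaving out experiment 3 does. Without those 3 arrays the Noc4l difference was 0.91 (limma adjusted p = 0.0566) and that of Bop1 was 0.79 (0.0848), with 0 of 8 called and 0.258% of all probe sets. The other differences without those arrays were 0.63 for Odc1, 0.56 for Srm, 0.43 for Fbl, 0.21 for Ncl, -0.19 for Npm1 and -0.62 for the dimmer Bop1 probe set (limma adjusted p = 0.393 to 0.914), and the median of the 7 genes was 0.56, against -0.01 over all genes. Without those arrays and with the replicate block, which called 1.55% of all probe sets, 3 of the 8 rose: Noc4l by 0.97 (limma adjusted p = 0.0124), Bop1 by 0.79 (0.0339) and Odc1 by 0.74 (0.0483). That fit was added after the data were seen. Leaving out experiment 3 called Noc4l alone (0.94, limma adjusted p = 0.0319, 0.853% of all probe sets called). Taking the times from the descriptions called Bop1 alone (0.78, limma adjusted p = 0.0404, 0.169% of all).

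Markers of the cells also differed by experiment at 4 h. The summed signal of the 14 adipocyte markers was 142894, 141815 and 115588 with GH in experiments 1, 2 and 3, against 144750, 136414 and 113278 in controls. That of the 13 preadipocyte or fibroblast markers was 29782, 31207 and 49630 with GH, against 36210, 33640 and 53228 in controls. Experiment 3 thus had a lower adipocyte sum and a higher fibroblast sum in both groups, and the part of this in its smaller GH differences was not tested. The sums mostly reflect the brightest probe sets. Scd1, Adipoq and Lpl had median signals of 32755, 30636 and 22318, against 252 for Cd36, so the sums do not speak for each marker. In these whole-culture samples, fewer cells of a type and less RNA per cell cannot be told apart. The Gapdh ratio of the GH array of experiment 3 at 4 h, 0.724, was the lowest of the 18, and its part was not tested either.

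**Figure D2:**
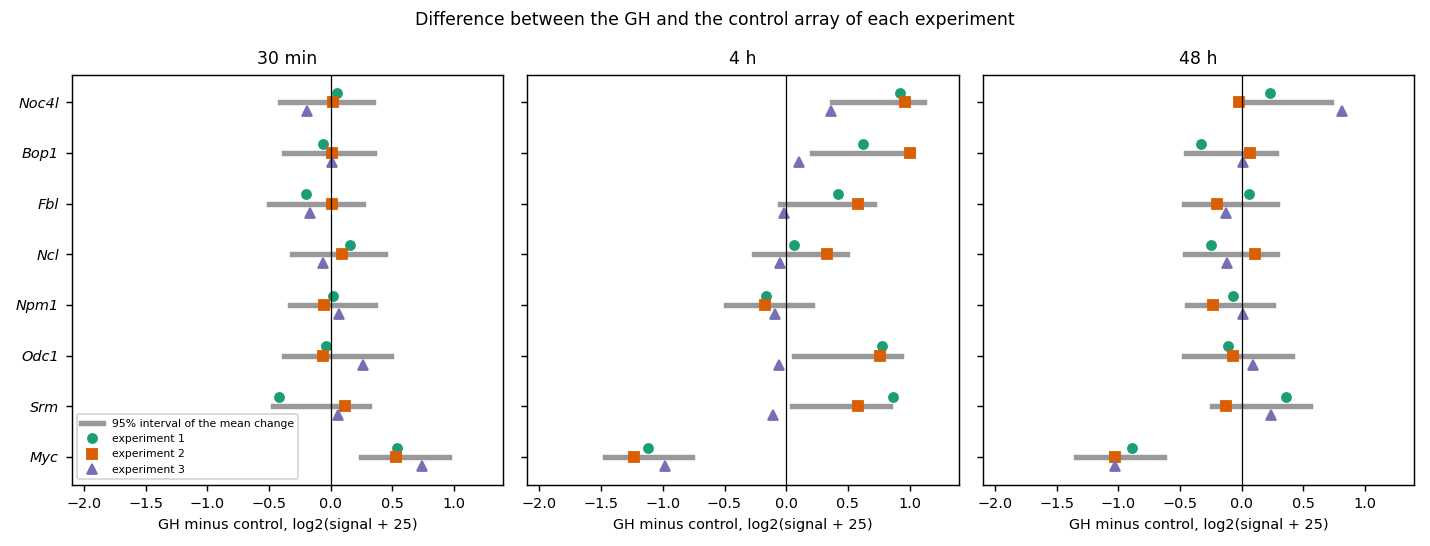
GH minus control on the log2(signal + 25) scale (horizontal axis) for the 7 genes and Myc (rows) at 30 min, 4 h and 48 h, with 1 point for each experiment and a grey line for the 95% interval of the mean difference in the fit of all 18 arrays. At 4 h the points of experiments 1 and 2 lie right of 0 for each of the 7 genes except Npm1, while Myc lies left of 0 in all 3 experiments at 4 h and 48 h.

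Myc read 1132.5, 1342.4 and 1216.8 with GH at 30 min, against 772.6, 923.0 and 718.6 in controls. It read 229.5, 155.1 and 188.0 with GH at 4 h, against 528.4, 398.0 and 396.0 in controls, and 260.0, 229.6 and 218.7 with GH at 48 h, against 501.6, 495.4 and 473.6 in controls. The groups did not overlap at any of the 3 times, with GH above control at 30 min and below it at 4 h and 48 h. For scale, all GH arrays lay above all control arrays at 4 h for 6.26% of all probe sets. The shares for the other direction and the other times are not given here. The Myc difference of 0.60 at 30 min did not pass the test (limma adjusted p = 0.901), while Myc fell by 1.11 ± 0.17 at 4 h (SE, 0.0103) and by 0.98 ± 0.17 at 48 h (0.0185). These Myc calls were lost, with the sign kept, when any experiment was left out (adjusted p = 0.0547 to 0.904 at 4 h) and when only the 6 arrays of a time were fitted (0.456 at 4 h and 0.267 at 48 h), and the call at 48 h also without the 3 arrays of conflicting labels (-1.01, 0.0707), while that at 4 h was kept without them (-1.11, 0.0471). With the times of the descriptions neither passed: Myc differed by -1.14 at 4 h (limma adjusted p = 0.714) and by -0.47 at 48 h (0.997), and at 30 min the sign turned, to -0.21. The Myc signal of 188.0 on the GH array at 4 h of experiment 3, whose description says 30 min, lies among the other GH arrays of 4 h and far below those of 30 min. That of 1132.5 on the GH array at 30 min of experiment 1, described as 48 h, lies near the other GH arrays of 30 min. It is far above those of 48 h. The control at 48 h of experiment 3, at 473.6, lies within the range of the controls of 4 h, so Myc does not tell its labels apart.

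Set beside Myc pair by pair, the median difference of the 7 genes was 0.58 or more in 2 of the 9 pairs of a GH and a control array, and between -0.07 and 0.01 in the other 7. At 30 min, where Myc read higher with GH in all 3 experiments, the medians of the 7 genes were -0.04, 0.01 and 0.01. At 4 h, where the Myc differences were -1.12, -1.23 and -0.98, the 7 genes had medians of 0.62, 0.58 and -0.05. At 48 h the Myc differences were -0.89, -1.03 and -1.03, and the medians of the 7 genes were -0.07, -0.07 and 0.01. The Myc differences fell into 2 clusters, 30 min and later, 1.41 apart, so no correlation was taken over all 9 pairs. The 6 pairs of 4 h and 48 h come 2 from each experiment and so are not fully independent. They also mix 2 times, and the permutation treats all 6 as exchangeable. The lowest Myc differences are those of 4 h in experiments 1 and 2. A relation to Myc and a difference between times can therefore not be told apart. Over these 6 pairs, Pearson's r with Myc was -0.97 for Bop1 (exact permutation test, two-sided, p = 0.00833, adjusted over the 7 genes p = 0.034), -0.92 for Ncl (p = 0.0167, adjusted 0.0389) and -0.87 for Odc1 (p = 0.00972, adjusted 0.034). Spearman's rho was -0.77 for Bop1, -0.71 for Ncl and -0.89 for Odc1, and by rank none passed after adjustment (exact permutation test, adjusted p = 0.204 to 0.497 over the 7). Without the 2 pairs farthest from the median Myc difference, r was -0.87 for Bop1, -0.45 for Ncl and -0.93 for Odc1. These values rest on 4 pairs, too few to show which r holds, and are descriptions only. The same omission gave -0.92 for Srm, -0.78 for Fbl, -0.59 for Noc4l and 0.29 for Npm1. The other r values were -0.71 for Noc4l, -0.73 for Fbl, -0.51 for Srm and 0.43 for Npm1 (exact permutation p = 0.106, 0.107, 0.318 and 0.376), with rho of -0.83, -0.49, -0.54 and 0.37. An experiment holds only 2 of these pairs, so no value within an experiment could be given. Leaving out the 3 arrays of conflicting labels would also leave 4 pairs, and no correlation was taken over them.

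**Figure D3:**
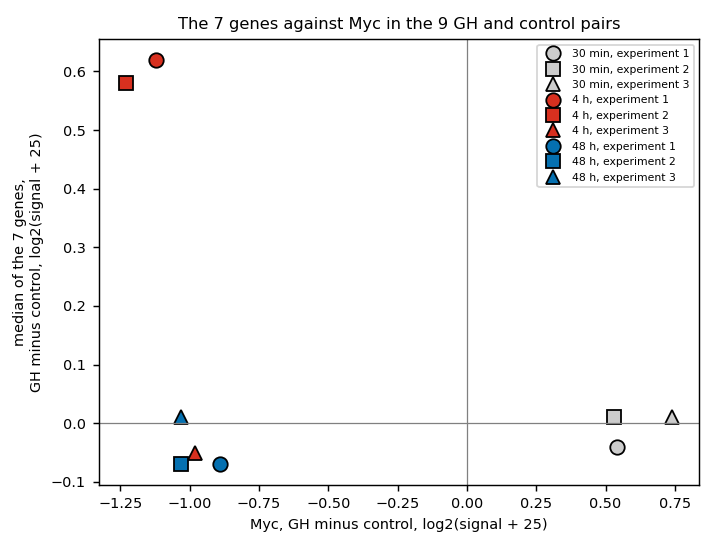
Median GH minus control difference of the 7 genes (vertical axis) against that of Myc (horizontal axis), both on the log2(signal + 25) scale, with 1 point for each of the 9 pairs of a GH and a control array, coloured by time and shaped by experiment. The pairs of 4 h in experiments 1 and 2 stand alone at the upper left, at 0.62 and 0.58, while the pairs of 48 h have a similar Myc difference and lie near 0.

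Differences between times were tested in the same fit. GH at 4 h against GH at 30 min, which called 0.636% of all probe sets, called 1 of the 8, Noc4l, which rose by 0.84 ± 0.18 (SE, limma adjusted p = 0.0421). The call was kept with the replicate block (0.029, 2.03% of all probe sets called) and without the 3 arrays (1.00, 0.0375). It was lost with a pseudocount of 1 (0.0639), with each array centred on its median (0.0959), with the 6 arrays alone (0.232), with the times of the descriptions (0.172), without experiment 1 (0.645) and without experiment 2 (0.707). Srm differed by 0.73, Fbl by 0.63, Bop1 by 0.56 and Odc1 by 0.52 in that comparison, and none of these passed. Controls of different times were close for the 7 genes: none of the 8 probe sets passed at 4 h against 30 min (0.0886% of all called) or at 48 h against 30 min (0.129%), with differences of -0.11 to 0.20 outside the dimmer Bop1 probe set. Myc was not steady in controls. It differed there from 30 min by -0.84 at 4 h (limma adjusted p = 0.119) and by -0.68 at 48 h (0.361). The control difference at 4 h passed with a pseudocount of 100 and with the filter on dim probe sets. In GH arrays Myc differed from 30 min by -2.55 at 4 h (limma adjusted p = 4.39e-07) and by -2.27 at 48 h (1.1e-06).

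Contrasts of the GH difference between times passed the test for none of the 7 genes. For 4 h minus 30 min the contrast was 0.79 ± 0.25 for Noc4l (SE, limma adjusted p = 0.900) and 0.58 ± 0.24 for Bop1 (0.999), with 0 of 8 called by limma, and 0.0161% of all probe sets. An unadjusted p below 0.05 was reached by 2 of 8 and by 4.42% of all probe sets. For 48 h minus 4 h the contrast was -0.65 ± 0.24 for Bop1, -0.53 ± 0.29 for Odc1, -0.42 ± 0.25 for Fbl and -0.41 ± 0.25 for Noc4l, again with 0 of 8 called by limma, and 0.00805% of all probe sets. An unadjusted p below 0.05 was reached there by 1 of 8 and by 4.92% of all probe sets. For 48 h minus 30 min, 0 of 8 were called, with 0.0644% of all. Myc passed in the first and the last of these contrasts, at -1.71 and -1.59.

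Further genes of the same processes came from lists of known members. Of 75 measured ribosome biogenesis genes, 57 had a higher signal with GH at 4 h, with a median of 0.15, and 0 passed the test by limma with or without the replicate block. An unadjusted p below 0.05 was reached by 3 higher and 1 lower of the 75, against 3.64% of all probe sets higher and 3.22% lower. Without the 3 arrays of conflicting labels, 60 of the 75 were higher and the median was 0.26. As in the 7 genes, the median was 0.29 in experiment 1, 0.32 in experiment 2 and -0.20 in experiment 3, where 20 of 75 were higher with GH, and the medians of all genes were -0.02, -0.01 and 0.05. The 4 with the lowest p were Exosc10, Rsl24d1, Rrp12 and Eif6. Eif6, a factor that keeps the large subunit apart from the small one, averaged 1828 ± 567 with GH and 1268 ± 150 in controls (SD, n = 3 each), a difference of 0.47. Rsl24d1, a large-subunit assembly factor, averaged 1074 ± 151 with GH and 769 ± 201 in controls, a difference of 0.49. Rrp12 had differences of 2.57, 2.03 and -0.46 by experiment, on control signals near background. Exosc10, a nuclease of the RNA exosome, was lower with GH in each experiment, with 25.1 to 27.7 against 93.2 to 133 in controls (-1.42, limma adjusted p = 0.219), so its GH signals were below the background limit.

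Without the 3 arrays of conflicting labels and with the replicate block, when 1.55% of all probe sets were called, 3 of the 75 rose at 4 h, named after their values were seen: Nop56, a core protein of the particles that hold fibrillarin, Ddx24, a helicase, and Eif6. Nop56 read 1267.5, 1316.4 and 321.4 with GH, against 552.2, 448.5 and 476.7 in controls. The GH arrays of experiments 1 and 2 were far above control and that of experiment 3 was below it, and the difference was 1.39 without the 3 arrays (limma adjusted p = 0.0127, with the block) and 0.71 with all arrays (0.784). With the block and without the 3 arrays, the difference of Ddx24 was 0.69 (limma adjusted p = 0.0462) and that of Eif6 was 0.70 (0.0396).

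**Figure D4:**
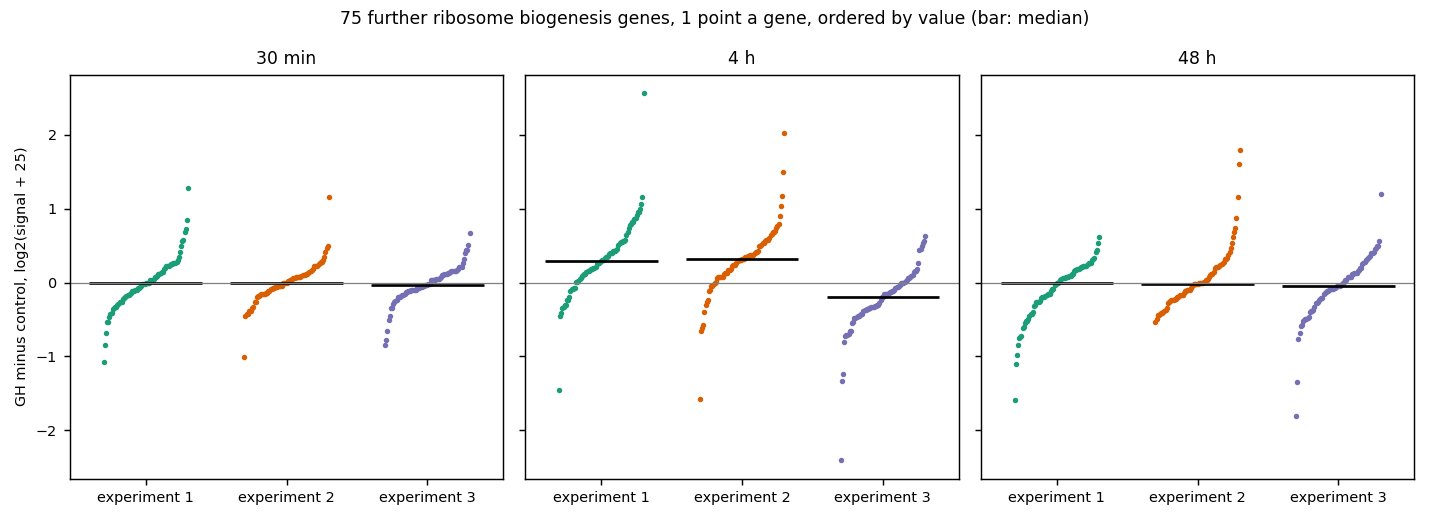
GH minus control on the log2(signal + 25) scale (vertical axis) of 75 further ribosome biogenesis genes by experiment (horizontal axis) at 30 min, 4 h and 48 h, with 1 point for each gene, ordered by value, and a bar for the median. The bars lie near 0 at 30 min and 48 h, and at 0.29, 0.32 and -0.20 in experiments 1, 2 and 3 at 4 h.

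RNA polymerase I genes and polyamine genes other than Odc1 and Srm were spread around 0. Of 17 measured genes of RNA polymerase I transcription, 8 were higher with GH at 4 h, with a median of 0.00 (0.06 without the 3 arrays) and 0 called by limma. Against 3.64% of all probe sets, 1 was higher at an unadjusted p below 0.05. That was Polr1e, a polymerase subunit, at 174 ± 39.0 with GH and 108 ± 27.0 in controls, a difference of 0.57 ± 0.19 (limma adjusted p = 0.478). Its control signals, 77.8 to 128, lay around the background limit. Ubtf, which loads the polymerase on ribosomal genes, differed by -0.20, Taf1a by -0.20 and Polr2h by 0.13. Of 17 polyamine genes, 9 were higher, with a median of 0.04 (0.08 without the 3 arrays) and 0 called (1 lower unadjusted, against 3.22% of all probe sets). Mat2b, a subunit of the enzyme that makes S-adenosylmethionine, averaged 1358 ± 351 with GH at 4 h and 2081 ± 248 in controls, a difference of -0.63 ± 0.18 (limma adjusted p = 0.330, and 0.0156 with the block and without the 3 arrays). Enoph1, Arg2 and Dohh differed by 0.59, 0.45 and 0.39 and did not pass (limma adjusted p = 0.835 to 0.939).

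Cytosolic ribosomal proteins, the parts that the assembly factors put together, were spread around 0: 18 of 33 were higher with GH at 4 h, against 51.0% of all genes, the median was 0.01, and 0 were called (0 unadjusted). Without the 3 arrays, 7 of 33 were higher and the median was -0.14. Rpl13a and Rps14, those with the lowest p among them, differed by -0.39 and 0.80, that of Rps14 on signals near background. Among 13 genes of the Myc network, 3 were higher and 10 lower with GH at 4 h, and Myc alone passed. Their median was -0.11, and -0.34 without the 3 arrays. Mnt, a repressor that shares MYC's partner MAX, averaged 92.6 ± 49.2 with GH and 274 ± 110 in controls (-1.38 ± 0.47, limma adjusted p = 0.490, and 0.0645 with the replicate block). Its GH signals, 35.9 to 125, lay around the background limit. Of 32 other known Myc targets, 22 were higher with GH at 4 h, with a median of 0.12 and 0 called by limma. An unadjusted p below 0.05 was reached by 7 higher and 2 lower, against 3.64% and 3.22% of all probe sets. Without the 3 arrays, 20 were higher and the median was 0.22. Slc7a5, a carrier of large neutral amino acids, read 3292.7, 3648.3 and 1182.3 with GH at 4 h and 919.7, 792.1 and 834.0 in controls, a difference of 1.49 ± 0.31 (limma adjusted p = 0.113) that passed without the 3 arrays (2.00, 0.000565). Mcm7, a subunit of the replicative helicase, had the opposite sign, at 141.2, 188.3 and 389.0 with GH and 374.5, 386.6 and 418.2 in controls (-0.77, adjusted p = 0.490, and -1.15, 0.0428, without the 3 arrays). For both, the GH array of experiment 3 lay nearest to control. The fit without the 3 arrays called 0.258% of all probe sets. With the block and without the 3 arrays, Slc7a5 (limma adjusted p = 0.0015) and Mcm7 (0.0127) passed, and Nme1, a nucleoside diphosphate kinase gene on an _f_at probe set, rose by 1.00 (0.0339, against 0.67 and 0.712 with all arrays and no block), named after its values were seen, in the fit that called 1.55% of all probe sets.

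Adipocyte and fibroblast genes had no calls at 4 h, with or without the replicate block. Of 21 adipocyte genes 7 were higher with GH, with a median of -0.05, and 0 passed by limma (0 unadjusted). Of 18 preadipocyte and fibroblast genes 3 were higher, with a median of -0.09, and 0 passed (1 lower unadjusted, against 3.22% of all probe sets). Without the 3 arrays the adipocyte sign turned, with 13 of 21 higher and a median of 0.12, and the other list had 3 of 18 higher and a median of -0.33. The lowest p values at 4 h were those of Cd36 (-0.35) and Gpd1 (0.47) among the adipocyte genes and of Pdgfra (-1.10) and Wnt10b (0.50, on signals near background) among the others. At 48 h the median of the 7 genes was -0.08, with Noc4l at 0.34. At that time Agt rose by 1.97 and Postn fell by 1.65 (limma adjusted p = 0.0342 and 0.00776), of which Postn (0.0265) and not Agt (0.132) passed without the 3 arrays, and both passed with the block and without them (Agt 0.000444, Postn 0.0125). Agt also passed with the block and all arrays (0.000435). With the replicate block Pck1, Retn, Col3a1 and Lox also fell at 48 h, and of these Lox alone passed with the block and without the 3 arrays.

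The genes were also compared by their course over the 18 arrays, as descriptions without a test, since arrays share groups and experiments. Odc1 and Srm correlated at 0.81, Noc4l and Srm at 0.80, and Noc4l and Bop1 at 0.78, while Npm1 correlated with the others at -0.33 to 0.33. The mean of the 7, each centred on its own mean, was set against 5433 genes above background. The most alike were Iars (r = 0.92), a transfer RNA synthetase gene, Slc7a5 (0.89), Srsf2 on an _s_at probe set (0.88), Vcl (0.88) and Ran (0.87). The most opposed were Nr1d2 (-0.93), Ttc33 (-0.92) and Ube2h (-0.91). Myc had r = -0.60 and stood at place 5243 of 5433.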

How the data were processed

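The authors' deposited values are linear signal intensities, 1 for each probe set on each array, and had already been scaled between arrays. The summary method and software are not given in the sources used here, so changes are relative to the bulk of each array, and that scaling could hide a change shared by most genes. Of 12488 probe sets, 66 manufacturer controls were left out. Of the 12422 others, the platform table names 10833 with 1 symbol and 396 with several, and leaves 1193 unnamed. For a gene of several probe sets the brightest stands in lists. Signals were tested as log2(signal + 25) with limma 3.58.1 in R 4.3.3, two-sided, in 1 model of 6 groups with 12 residual degrees of freedom. Adjustment followed Benjamini and Hochberg over all 12422, and 0.05 was the threshold. The fit was tested on simulated data.

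Experiment numbers were taken to pair the samples: deviations of the GH and control arrays of 1 experiment from their group means correlated at 0.151 to 0.457 across probe sets, all above the limit of 0.1, against -0.302 to 0.213 between experiments. Deviations within a group cancel out, so positive values within experiments push those between them down. The second range is therefore not independent of the first, and the ranges overlap. The fit with the experiment as a replicate block has 10 residual degrees of freedom.

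The 7 genes, the lists and the tests were chosen with earlier results of these data known. Named list genes are those past the threshold with or without the block, and the 4 (ribosome biogenesis, RNA polymerase I, polyamines) or 2 (other lists) with the lowest p at 4 h. Genes named for likeness are the 5 highest and 3 lowest by r. Alternatives were other pseudocounts (1 and 100), quantile normalization, median centring, a filter on dim probe sets, the arrays of a comparison alone, the labels of the descriptions, and leaving out experiments or the 3 arrays. The fit with the block and without these 3 arrays, the fits with the block that leave out an experiment, and the motifs other than the E-box forms were added after seeing the data. Arrays give no counts, and the number of arrays limits the precision.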

Additional observations from a re-analysis of the deposited data

Results flagged for a closer look

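The GH difference of Myc, the gene that the 7 were set against, differed between times by limma's contrast of contrasts. It was -1.71 for 4 h minus 30 min (adjusted p = 0.0148) and -1.59 for 48 h minus 30 min (adjusted p = 0.015), with the same sign in each experiment. None of the 8 probe sets of the 7 genes passed either contrast, and no group of 3 arrays is large enough for a check of single outlying arrays. Both calls were lost without the 3 arrays of conflicting labels, at -1.77 (adjusted p = 0.0682) and -1.67 (0.0651), and with the times of the descriptions, at -0.92 (0.956) and -0.26 (0.999). They were also lost on leaving out any 1 experiment, at -1.74 to -1.69 (0.123 to 1.0) and -1.67 to -1.49 (0.174 to 1.0). The first was lost with the arrays of its 2 times alone (0.108). Both were kept with the replicate block, with all arrays (0.00753 and 0.0105) and without the 3 arrays (0.0299 and 0.0328).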

How the results depend on the processing

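Over all planned and added settings, the 8 probe sets gave 0 calls against control at 30 min and at 48 h. At 4 h the count of 0 became 1 with the times of the descriptions, and 3 with the replicate block without the 3 arrays of conflicting labels. Leaving out 1 experiment in turn gave 0 to 1, with or without the block. The median of the 7 genes at 4 h ran from 0.28 to 0.72. At 30 min it was 0.04 with median centring and 0.03 with the times of the descriptions. At 48 h it was -0.01 with those times, and -0.07 to 0.01 (0.01 without experiment 1, -0.03 without experiment 2) on leaving out 1 experiment in turn. For GH at 4 h against GH at 30 min the count of 1 became 0 with a pseudocount of 1, median centring, the arrays alone or the descriptions. Leaving out an experiment gave 0 to 1. The count became 2 (Noc4l and Srm) with a pseudocount of 100, which called 130 of all 12422 probe sets. It was also 2 with the filter on dim probe sets, which called 125 of 7154. The main fit called 79 of 12422. The replicate block alone changed no call of the 7 genes or Myc. With the times of the descriptions Myc differed by -1.14 at 4 h and -0.47 at 48 h, and neither passed.

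Of 609 recomputed differences, 26 changed sign, none of them called in either setting. For Myc at 30 min the sign turned from a difference of 0.60, the others from differences no further from 0 than -0.11. At 30 min, the sign changed with median centring for Noc4l (0.02) and Bop1 (0.04), with quantile normalization for Bop1 (0.01) and Npm1 (-0.05), and with the times of the descriptions for Noc4l (0.14), Bop1 (0.03), Npm1 (0.00), Srm (0.18) and Myc (-0.21). Without the 3 arrays it changed for Ncl (-0.04), Npm1 (-0.02) and Srm (0.06), and with the block as well for Bop1 (0.00), Ncl (-0.01) and Srm (0.04). Leaving out 1 experiment in turn gave ranges across 0 at 30 min for Noc4l (-0.08 to 0.04), Bop1 (-0.02 to 0.01), Npm1 (-0.01 to 0.05), Odc1 (-0.05 to 0.11) and Srm (-0.18 to 0.09). At 48 h it changed for Odc1 without the 3 arrays (0.09) and with the descriptions (0.03), and on leaving out 1 experiment for the brighter Bop1 probe set (-0.16 to 0.04), the dimmer one (-0.27 to 0.19) and Odc1 (-0.09 to 0.01). The contrast of 48 h minus 4 h for Npm1 was -0.07 with the block without the 3 arrays. The cause of these changes was not tested. The signs of Noc4l, the brighter Bop1 probe set, Fbl, Ncl, Odc1, Srm and Npm1 at 4 h were kept in every setting run.

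The 3 arrays per group and the scaling shared by all genes limit these values. A difference of the size seen for Ncl or Npm1 was not detectable with this spread. The dimmer Bop1 probe set, mostly below the background limit, was left out by the filter on dim probe sets.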
